A study of Arabidopsis thaliana with 18 samples.

Results

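The comparison described here asks what response to salicylic acid (SA), a defence hormone of plants, is seen in 1 set of arrays from Arabidopsis thaliana accession Est. The labels give only the abbreviation SA, which is read here as salicylic acid from its usual use in plant biology. The comparison sets the SA arrays with title numbers 52, 53 and 54 against the silwet arrays with title numbers 43, 44 and 45, which is 6 of the 18 arrays of the series. Control plants received 0.02% silwet, a surfactant that lets a solution wet the plant surface. Treated plants received 0.3 mM SA in 0.02% silwet, so that both groups carry the surfactant. The arrays were taken by their title numbers, a choice made with earlier results of these data known. The replicate numbers 1, 2 and 3 in the titles paired them: 43 with 52, 44 with 53 and 45 with 54.

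All plants belonged to the natural accession Est, with no transgene or mutation named. Total RNA carried a biotin label, and each sample had its own Affymetrix ATH1 array. The sources used here give no tissue, plant age or harvest time and do not state whether arrays are separate plants. The p-values therefore reflect the spread between these 6 arrays, which may be partly technical. The titles run through the replicate numbers 3 times in each treatment. The labels do not say what separates the runs, nor which silwet run is the partner of an SA run. The first pair of runs (SA 46 to 48, silwet 37 to 39) and the second pair (SA 49 to 51, silwet 40 to 42) serve below only to show where the present pair differs, and share no arrays with it.

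SA is made in response to biotrophic pathogens and is perceived by NPR proteins, which act with TGA transcription factors on defence genes. WRKY factors, glycosyltransferases that inactivate the hormone, and glutaredoxins that bind TGA factors belong to this response. Secreted defence proteins are folded in the endoplasmic reticulum, and genes of its folding machinery are among those that SA can induce. In crucifers the hormone also acts against jasmonate signalling, whose outputs include plant defensins.

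No probe set passed the test between the SA and the silwet arrays. Values are levels on the log2(signal + 16) scale, and the fit was a paired limma model over 17059 probe sets with p-values adjusted after Benjamini and Hochberg and called under 0.05. The share called was 0% in each direction, and the smallest adjusted p was 0.232. At an unadjusted p under 0.05, 682 probe sets (4%) were higher with SA and 1541 (9.03%) were lower. In 2579 probe sets (15.1%) SA was the higher in all 3 pairs, and in 3641 (21.3%) it was the lower. The 3 SA arrays lay above all 3 silwet arrays in 659 probe sets (3.86%) and below them in 1362 (7.98%). After quantile normalization of the 6 arrays, 1004 were higher and 1172 lower at the unadjusted limit, so that the share of lower calls went from 69.3% to 53.9%. The median of all differences was -0.04 as deposited and 0.01 after that normalization.

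The data limit the size of what could be missed only on the scale used, with its offset. On that scale the 95% interval of the difference had a median half-width of 0.35. For 16608 probe sets (97.4%) the whole interval lay within 1 log2 unit of 0. Fold changes of dim probe sets are understated there, so larger ones are not excluded. For BSMT1, described below, the difference was 0.89 in the main setting, 1.21 with an offset of 1 and 0.50 with an offset of 64. Over all probe sets tested the largest fall was -1.41 and the largest rise 0.99. The count of calls changed when the arrays with replicate number 1 were left out. Then 163 probe sets passed as higher and 374 as lower in the same limma test, from 2 pairs with 1 residual degree of freedom. That fit took the variance prior as exact, which the main fit did not, so the counts are not on an equal footing. At an unadjusted p under 0.05 it gave 953 higher and 1593 lower, beside 682 and 1541 in the main fit. Without replicate number 3, 3 probe sets passed as lower and 0 as higher.

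Few genes of the SA pathway could be assigned to probe sets by name, and those tested did not all move in the same direction. Of 53 loci listed for SA synthesis and signalling, 6 have a probe set named in the annotation used, and 5 were tested. None passed, 1 was higher and 4 were lower, and their median difference was -0.17, against -0.04 over all probe sets tested. The 7199 tested probe sets that are unnamed here could not be counted in any list, so these 5 genes do not stand for the pathway. PR1, PR2, PR5 and ICS1 are not analysed by name here.

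UGT76B1, a glycosyltransferase that inactivates SA and its relative isoleucic acid, stood at 5.67, 5.43 and 6.08 on silwet arrays 43, 44 and 45 and at 6.24, 4.89 and 5.11 on SA arrays 52, 53 and 54. It was thus higher with SA in the pair with replicate number 1 and lower in the other two, and the groups overlapped. The mean difference was -0.31 (95% interval -0.88 to 0.26, adjusted p = 0.626 in limma). The same gene stood 2.73 higher with SA in the first pair of runs and 0.65 higher in the second.

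GRX480, a glutaredoxin that binds TGA factors, stood at 7.52, 7.45 and 7.31 on the silwet arrays and at 7.72, 6.93 and 7.14 on the SA arrays. Again only the replicate number 1 pair was higher with SA, and the groups overlapped. Its difference was -0.16 (interval -0.54 to 0.21), beside 1.28 in the first pair of runs and -0.50 in the second.

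WRKY53, a WRKY factor of senescence and defence, was at 6.55, 6.97 and 6.99 with silwet and at 7.02, 5.92 and 6.55 with SA. One pair was higher and the others were lower, with overlapping groups and a mean difference of -0.34 (interval -0.89 to 0.21). In the first pair of runs its difference was 1.49, and in the second -0.46. Of the 3 WRKY genes tested from a list of 26, none passed, 2 were higher and 1 lower, and the median was 0.30. Among all 7 tested genes whose symbol or synonym in the gene table holds WRKY, 3 were higher and 4 lower with a median of -0.20. With the gene length trend described below removed, that median was 0.03. At an unadjusted p under 0.05, 2 of the 7 were lower and 0 higher, beside 9.03% and 4% of all probe sets. WRKY22, a factor of pattern-triggered immunity, was higher with SA in all 3 pairs by 0.15 to 0.44, with a mean difference of 0.30 and an interval from -0.04 to 0.65.

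F6'H1 encodes feruloyl-CoA 6'-hydroxylase, the enzyme that leads to the coumarin scopoletin. It stood at 6.0, 6.14 and 6.08 with silwet and at 6.71, 5.46 and 5.88 with SA. The silwet arrays lay close together, while the SA arrays spread over more than 1 log2 unit on both sides of them. The mean difference was -0.06 (interval -0.58 to 0.47), beside 1.96 in the first pair of runs. SAG101, a lipase-like partner of EDS1, was lower with SA in all 3 pairs, with a mean difference of -0.25 (interval -0.59 to 0.09).

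BSMT1 was the exception within the SA list. It encodes the methyltransferase that turns SA and benzoic acid into volatile methyl esters. BSMT1 stood at 5.34, 6.16 and 5.05 on the silwet arrays and at 6.17, 7.15 and 5.88 on the SA arrays. Every SA array stood above its own silwet partner by 0.83 to 0.99, although the groups overlap because the replicate number 2 arrays were high in both. The difference was 0.89 (SE 0.15, 1.85-fold, adjusted p = 0.232 in limma), so it did not pass. In the first pair of runs BSMT1 had a difference of -0.24, and the difference between the 2 values did not pass either (1.13, adjusted p = 0.152 in limma).

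**Figure D1:**
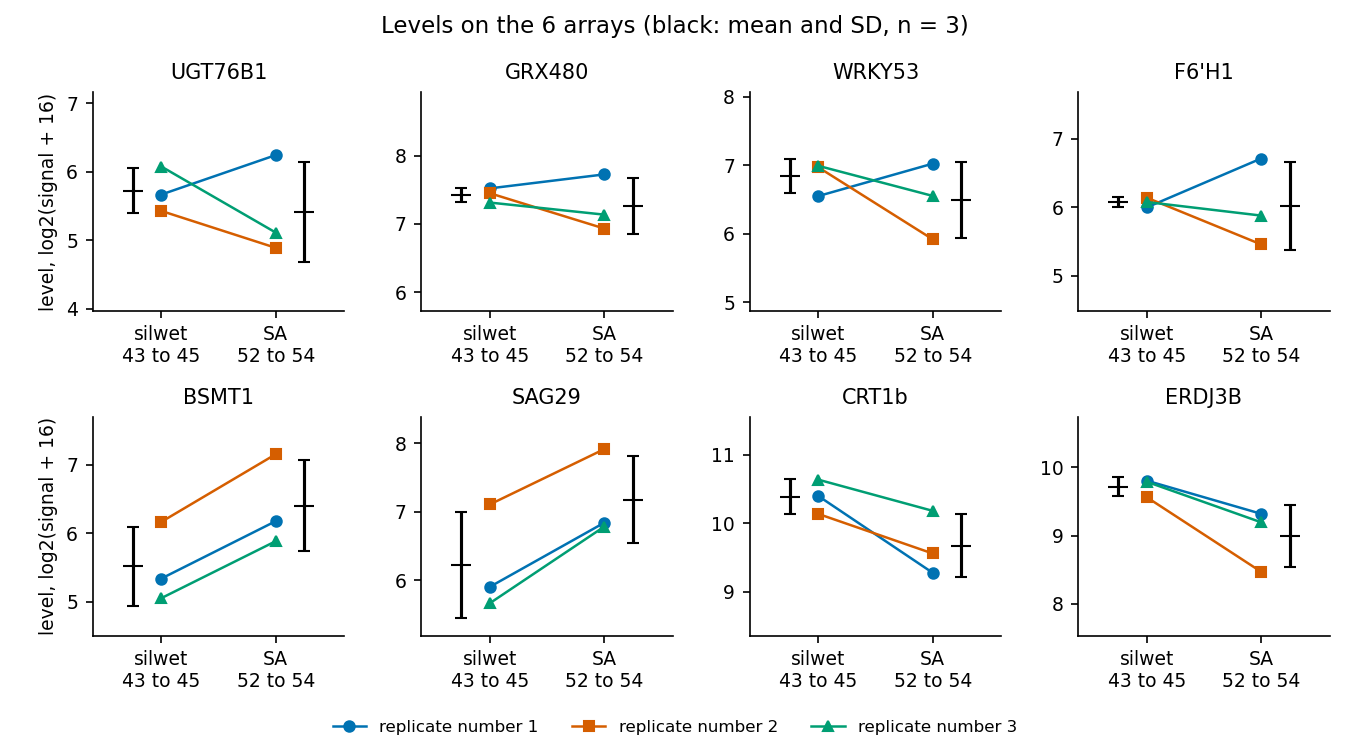
Levels on the log2(signal + 16) scale of 8 genes on the 6 arrays, 1 line for each pair of arrays that shares a replicate number, with the mean and SD of each group (n = 3) in black; each panel spans the same range of levels. UGT76B1, GRX480, WRKY53 and F6'H1 are higher with SA only in the pair with replicate number 1, while BSMT1 and SAG29 are higher and CRT1b and ERDJ3B lower with SA in all 3 pairs.

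The 12 genes with the smallest p among those higher with SA in all 3 pairs included 3 with a symbol, BSMT1, SAG29 and SWEET2. None passed, and the adjusted p in limma was 0.232 to 0.251 for these 12 and for the 12 lower genes described next. SAG29, a senescence-associated sugar transporter also called SWEET15, stood at 5.90, 7.10 and 5.66 with silwet and at 6.84, 7.91 and 6.78 with SA. Each SA array was above its partner by 0.81 to 1.12, and the groups overlapped because of the high level on both replicate number 2 arrays. The difference was 0.95 (SE 0.15, 1.94-fold). It is the single tested gene of 17 loci listed for senescence and nutrient salvage.

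SWEET2, a sugar transporter of the vacuolar membrane, stood at 5.99, 6.43 and 6.54 with silwet and at 7.05, 7.04 and 7.24 with SA. The groups did not overlap, and the difference was 0.79 (SE 0.16). Its difference had been -0.11 in the first pair of runs, and the change between the runs passed the test (0.90, adjusted p = 0.0367 in limma). SWEET2 was chosen by its difference here, which is a part of that change.

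The other genes of the set carry only a locus in the gene table, so no role is given for them. AT5G62360 stood at 8.68, 9.50 and 8.61 with silwet and at 9.52, 10.15 and 9.52 with SA, without overlap, a difference of 0.80 (SE 0.13). AT2G43550 stood at 9.39, 9.05 and 8.96 with silwet and at 10.19, 9.75 and 9.61 with SA. Both groups of AT2G43550 were again apart, by 0.71 on average (SE 0.12). The largest difference of the set was that of AT1G30700, 0.99 (SE 0.18), with overlapping groups. The remaining 6 were AT3G28220 (0.77), AT2G21530 (0.81), AT5G51420 (0.77), AT2G17360 (0.56), AT1G53035 (0.63) and AT4G01130 (0.61). The silwet levels of AT5G51420, 4.17 to 4.23, lie close to the 4 that the offset alone gives, so its fold is understated and its signal there is dim.

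Genes lower with SA included CRT1b and ERDJ3B of the endoplasmic reticulum folding machinery, and neither passed. CRT1b, a calreticulin that folds glycoproteins in the endoplasmic reticulum, stood at 10.40, 10.13 and 10.64 with silwet and at 9.27, 9.56 and 10.18 with SA. It was lower in every pair, by most in the pair with replicate number 1, and the groups overlapped only through SA array 54. The difference was -0.72 (SE 0.15, adjusted p = 0.243 in limma), which is 1.65-fold lower.

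ERDJ3B, a co-chaperone of the Hsp70 protein BiP in the same compartment, stood at 9.80, 9.56 and 9.79 with silwet and at 9.32, 8.47 and 9.19 with SA. All SA arrays lay below all silwet arrays, and the difference was -0.72 (SE 0.15). The list of secretory genes of the endoplasmic reticulum held 4 tested genes of 21. None passed, 3 were lower and 1 higher, and their median was -0.43. The other two members encode the stress transcription factors BZIP60 and BZIP28 of this compartment, with differences of 0.09 and -0.14.

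GFAT encodes the glutamine fructose-6-phosphate amidotransferase that starts the synthesis of amino sugars. It stood at 6.89, 6.37 and 6.73 with silwet and at 6.41, 5.12 and 5.96 with SA, lower in every pair with overlap between the groups, a difference of -0.83 (SE 0.18). Hop2, a co-chaperone that links Hsp70 and Hsp90, stood at 8.05, 7.37 and 7.61 with silwet and at 7.29, 6.08 and 7.11 with SA. Its groups did not overlap, and the difference was -0.85 (SE 0.18).

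The rest of the 12 lower genes were AT1G35710 (-0.96), AT3G60860 (-0.96), AT3G56410 (-0.88), AT1G11330 (-0.85), AT5G54860 (-0.78), AT4G23540 (-0.77), AT3G51330 (-0.73) and AT5G55420 (-0.72), which the gene table lists as a transcribed pseudogene. AT1G35710 stood at 8.25, 8.38 and 8.74 with silwet and at 7.15, 7.16 and 8.18 with SA. Its SA arrays lay below all silwet arrays, the replicate number 3 pair being the closest. Without the replicate number 1 arrays the 24 genes named here as higher or lower passed in limma. That fit had 1 residual degree of freedom and took the variance prior as exact. They had been chosen by sign and p on these same arrays, which favours that outcome. UGT76B1 (-0.75) and WRKY53 (-0.75) then passed as lower with SA. For both, the pair left out was the only one higher with SA, by 0.58 and 0.47.

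**Figure D2:**
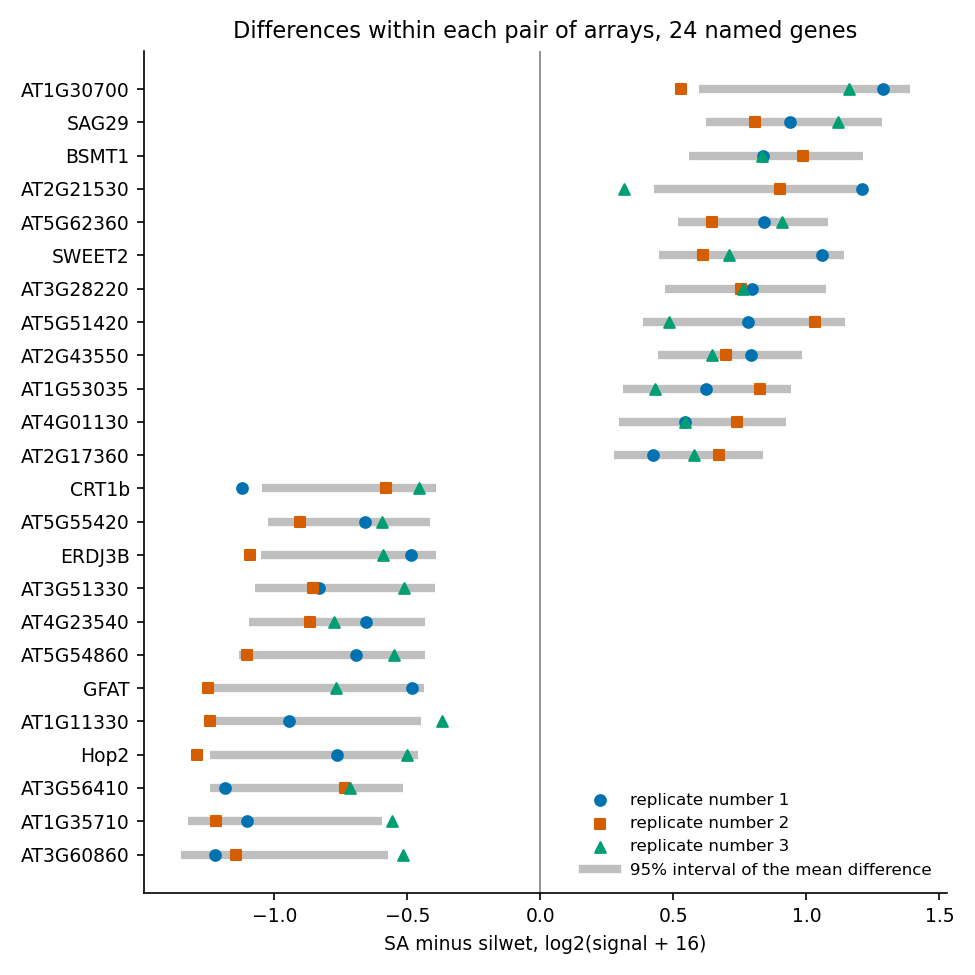
Difference between the SA and the silwet array of each replicate number, in log2(signal + 16), for the 12 genes higher and the 12 genes lower with SA that had the smallest p; grey bars are 95% intervals of the mean difference from limma. All 3 points of each gene lie on 1 side of 0, which the choice of genes requires, and the means run from -0.96 to 0.99.

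Other pathways showed small differences. Glucosinolates are sulfur-containing defence compounds of crucifers, and 4 of their 33 listed genes were tested: 3 were higher, 1 was lower, and the median was 0.47. BCAT4, which starts the chain elongation of methionine in that pathway, stood at 9.81, 9.88 and 10.21 with silwet and at 10.51, 10.35 and 10.39 with SA. Its groups did not overlap, and the difference was 0.45 (SE 0.13, adjusted p = 0.272 in limma). AOP3, a dioxygenase that modifies glucosinolate side chains, had a difference of 0.50 (interval 0.07 to 0.92), with silwet and SA arrays of replicate number 3 at the same level of 9.94 and 9.95.

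All 5 tested genes of 39 listed for cold, drought and abscisic acid were higher in each of the 3 pairs, with a median of 0.31, and none passed. Over all probe sets 15.1% were higher in all 3 pairs. In a separate family of 7 tested late embryogenesis and dehydrin genes, found by symbol or synonym, 3 were higher and 4 lower, with a median of -0.08. Of these 7 genes, 0 were higher in all 3 pairs. The family is incomplete: the dehydrins LTI30 (0.31) and COR47 (0.15) are outside it and belong to the 5 listed genes above. COR15B, a cold-regulated protein of the chloroplast, stood at 10.52, 10.29 and 10.47 with silwet and at 10.79, 10.90 and 10.73 with SA. The groups were apart, with a difference of 0.38 (SE 0.12). STZ, a zinc finger repressor of abiotic stress also known as ZAT10, was higher by 0.41 (interval 0.07 to 0.75) without overlap.

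Jasmonate and ethylene genes gave 5 tested of 50, with 1 higher, 4 lower and a median of -0.09. The defensin PDF1.2 stood at 7.07, 10.14 and 6.43 with silwet and at 6.61, 10.29 and 6.46 with SA. The level of the replicate number 2 arrays was thus far above the others in both treatments, and SA differed from silwet by -0.09 (interval -0.45 to 0.26). PDF1.2b showed the same high pair and a difference of -0.02. THI2.1, a thionin induced by jasmonate, was at 5.65, 4.92 and 4.95 with silwet and at 7.28, 5.68 and 4.69 with SA, so its mean difference of 0.71 came from replicate numbers 1 and 2. EIN3, the transcription factor at the head of the ethylene response, had a difference of -0.31 (interval -0.62 to -0.01).

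Photosynthesis genes stayed within narrow limits in their mean differences, while single pairs spread more widely. Of 65 loci listed, 11 were tested, 4 higher and 7 lower, with a median of -0.03 and a range from -0.17 to 0.12. RCA, the activase of Rubisco, had the lowest value of these, and on SA array 52 it stood at 10.81 beside 11.29 on its silwet partner. The antenna gene LHCB4.3 differed by -0.40, 0.52 and 0.23 in the pairs with replicate numbers 1, 2 and 3. Genes of the chloroplast and mitochondrial genomes gave 69 tested, 21 higher and 48 lower, with a median of -0.10 and 0 passing. At an unadjusted p under 0.05, 8 of the 69 were lower, a share close to the 9.03% of all probe sets, and 0 were higher.

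In the remaining lists no gene passed either. Detoxification genes numbered 5 tested (median 0.18), among them the glutathione transferase GSTU20 at 0.40 (interval 0.14 to 0.66). Cell wall loosening genes numbered 11 (median 0.06), with the xyloglucan enzyme EXGT-A3 at 0.57 (interval 0.21 to 0.93) and no overlap between its groups. Flavonoid genes numbered 4, all higher (median 0.22) beside 43.5% of all probe sets, with the flavonoid glucosyltransferase UGT78D2 at 0.33 and UGT78D1 at 0.24. Medians were 0.19 for 5 cell cycle genes, 0.00 for 6 auxin genes, -0.04 for 6 starch and sugar genes and -0.07 for 7 genes of touch, wounding and pattern response. Chlorophyll genes gave 6 tested, 3 higher and 3 lower. The ascorbate peroxidases TAPX and SAPX, the only tested genes of the oxidative stress list, differed by 0.18 and -0.19. Single or paired members stood for other lists: 0.01 for the photorespiratory enzyme HPR, -0.44 for the clock protein GI, 0.18 for the wax ester synthase WSD1 and 0.18 for AT1G55290 beside F6'H1. For GI, a gene of 6040 bases, the value was -0.14 with the gene length trend described below removed. PYK10, an abundant beta-glucosidase of roots, differed by -0.17 and the root hair expansin EXPA18 by 0.07. The flower and seed, heat shock and nutrient starvation lists had 0 tested members. In RNA from whole samples, fewer cells of a type and less RNA per cell cannot be told apart.

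The differences followed gene length. Among 9395 loci, the median difference was 0.07 for genes up to 1000 bases and -0.36 for the 315 genes over 6000 bases, with length taken from the start to the end of the gene, introns included. At an unadjusted p under 0.05, 2.39% of the genes up to 1000 bases were lower with SA, against 42.5% of those over 6000 bases. Genes lower at that limit had a median length of 3832 bases, those higher 1568, and all genes 2262. Across genes, which are not independent replicates, Spearman's rho between length and difference was -0.46. By pair it was -0.42, -0.36 and -0.10 for replicate numbers 1, 2 and 3. In the first pair of runs it was -0.12, and in the second 0.23.

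Control probe sets near the 3' and the 5' end of a transcript were read in the same pairs, and the 3 controls differed in their course. For actin the 3' probe set exceeded the 5' one by 0.32, 0.84 and 0.83 (log2) with silwet and by 0.66, 1.18 and 0.59 with SA. The ubiquitin ratio was 0.71, 0.87 and 0.96 with silwet and 0.93, 1.05 and 0.80 with SA. Both ratios were larger with SA in the pairs with replicate numbers 1 and 2 and smaller in the third, and for 3 arrays against 3 an exact two-sided permutation test cannot go below 0.1. The GAPDH ratio differed by 0.16, -0.15 and -0.07 in the 3 pairs. The part of transcript length and RNA integrity in the differences was not tested by an independent measure.

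With the length trend of each array removed, an alternative chosen after seeing the data, 9495 probe sets were tested and none passed in limma (smallest adjusted p 0.129). At the unadjusted limit 462 were then higher and 385 lower. The difference of AT3G60860, a gene of 7539 bases, went from -0.96 to -0.61, and that of AT4G23540, of 6074 bases, from -0.77 to -0.47. CRT1b, of 4365 bases, went from -0.72 to -0.52 and ERDJ3B, of 2871 bases, from -0.72 to -0.65. BSMT1, of 2922 bases, went from 0.89 to 0.96 and SAG29, of 2313 bases, from 0.95 to 0.96. Among short genes AT5G62360, of 965 bases, went from 0.80 to 0.71 and AT5G55420, of 724 bases, from -0.72 to -0.82.

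**Figure D3:**
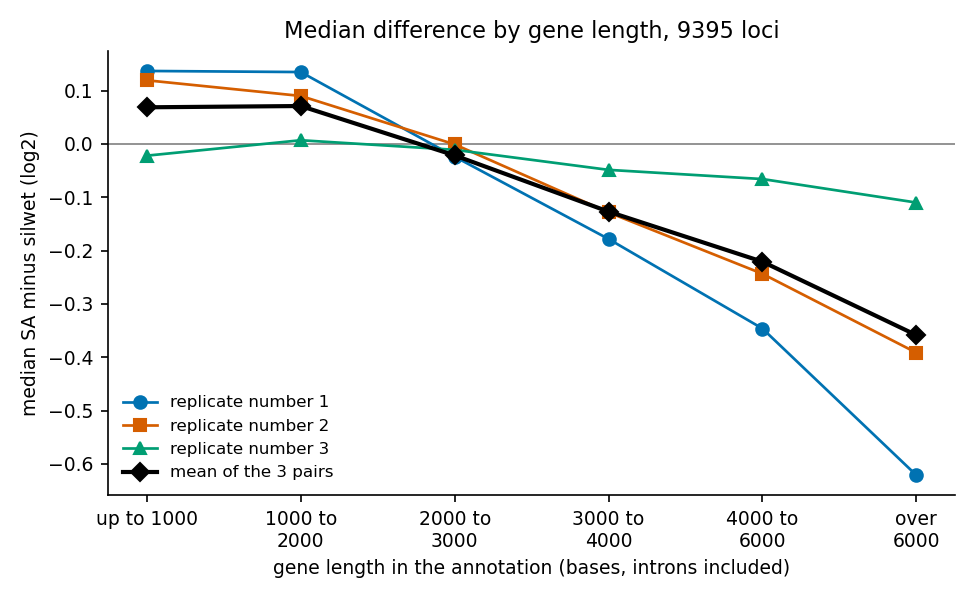
Median difference between SA and silwet (log2) of genes grouped by annotated length, for each pair of arrays and for the mean of the 3 pairs. The mean goes from 0.07 in genes up to 1000 bases to -0.36 in genes over 6000 bases, and the slope is steep for replicate numbers 1 and 2 and shallow for replicate number 3.

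The probe sets that changed in the first pair of runs show how much of that response is left. The same paired fit on those 6 arrays called 846 probe sets, 422 up and 424 down. Of the 405 risers tested here, 87 were higher with SA and 318 were lower, with a median of -0.19 against 0.82 in the first pair. At an unadjusted p under 0.05, 0 of them were higher and 96 (23.7%) were lower, beside 4% and 9.03% of all probe sets. The median was below 0 in each pair, at -0.10, -0.32 and -0.13.

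The probe sets that fell in the first pair lay on the opposite side. Of 423 tested here, 269 were higher with SA and 154 were lower, and the median was 0.11 against -0.81 in the first pair. At the unadjusted limit 80 (18.9%) were higher and 28 (6.62%) lower. With the length trend removed the medians were -0.19 for the risers and 0.17 for the fallers, of which 213 and 215 had a length. In the second pair of runs the same sets had medians of -0.34 and 0.33. A median over such a set is a description of these arrays, with no test.

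**Figure D4:**
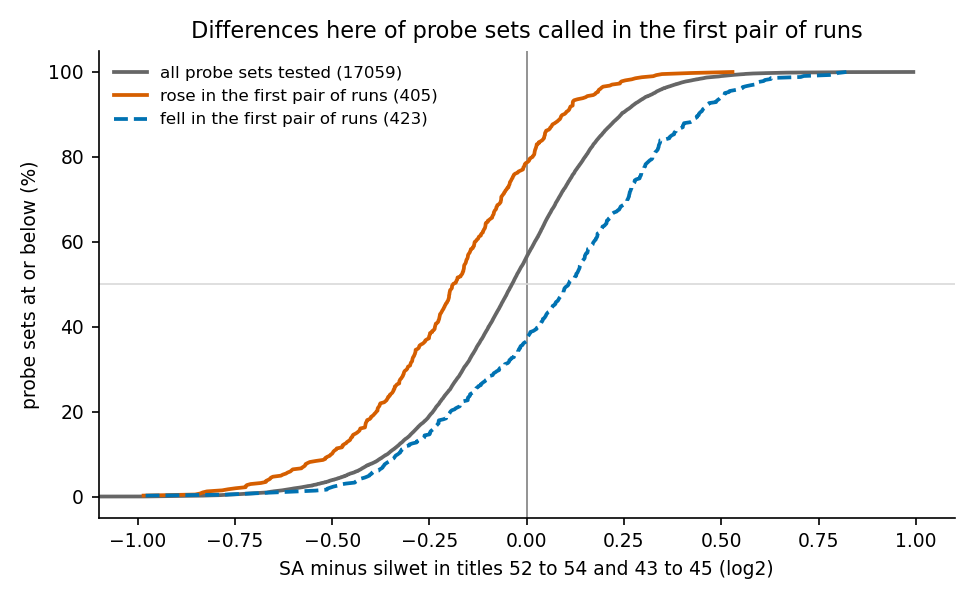
Share of probe sets (%) at or below each SA minus silwet difference (log2) in the present pair of runs, for all 17059 probe sets tested and for those that rose or fell in the first pair of runs. The curve of the 405 risers lies to the left of that of all probe sets, with a median of -0.19, and the curve of the 423 fallers lies mostly to the right, with a median of 0.11.

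A direct test of the change between the pairs of runs called 704 probe sets. The fit held all 18 arrays with the replicate number as a block. A replicate number had the same effect in all runs, so the pairs of arrays within each run were not fitted. The SA minus silwet difference was above that of the first pair in 325 probe sets (1.91%) and below it in 379 (2.22%). Without replicate number 2 the count was 1, without replicate number 3 it was 22, and without the replicate block it was 217. Among the genes named here 23 passed. That share has no meaning of its own, since many of these genes were chosen by their difference in the present pair, which enters the change. The others were chosen with earlier results of these data known. The difference from the second pair passed in 0 probe sets (0%) in limma, with a smallest adjusted p of 0.451 and 1776 probe sets at an unadjusted p under 0.05, which does not show that the pairs are alike.

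Of the 5 tested genes of the SA list, 2 differed from the first pair, UGT76B1 and GRX480, as did 1 of the 3 listed WRKY genes, WRKY53. Over all probe sets tested, 704 of 17059 differed. UGT76B1, GRX480 and WRKY53 were chosen to be named with earlier results of these data known, so these counts say nothing about the lists as a whole. The change was -3.04 for UGT76B1 (SE 0.53, adjusted p = 0.00513 in limma), the widest among the named genes. For F6'H1 the change was -2.01 (SE 0.48), for WRKY53 -1.83 (SE 0.36) and for GRX480 -1.44 (SE 0.29). The chaperones followed with -1.67 for ERDJ3B and -1.27 for CRT1b, and GFAT with -1.99. ERDJ3B had a difference of 0.94 in the first pair, -0.70 in the second and -0.72 here. GFAT had 1.16, -0.79 and -0.83 in the same order.

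Other named genes had a higher difference than in the first pair. AT5G62360 went from -1.50 to 0.80, a change of 2.3 (adjusted p = 0.000502 in limma), AT4G01130 from -1.62 to 0.61 and AOP3 from -1.77 to 0.50. BCAT4 went from -0.87 to 0.45, COR15B from -0.67 to 0.38 and UGT78D1 from -1.12 to 0.24. With the length trend removed, 22 of the 23 named changes passed, the exception being GSTU20 (adjusted p = 0.091 in limma).

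**Figure D5:**
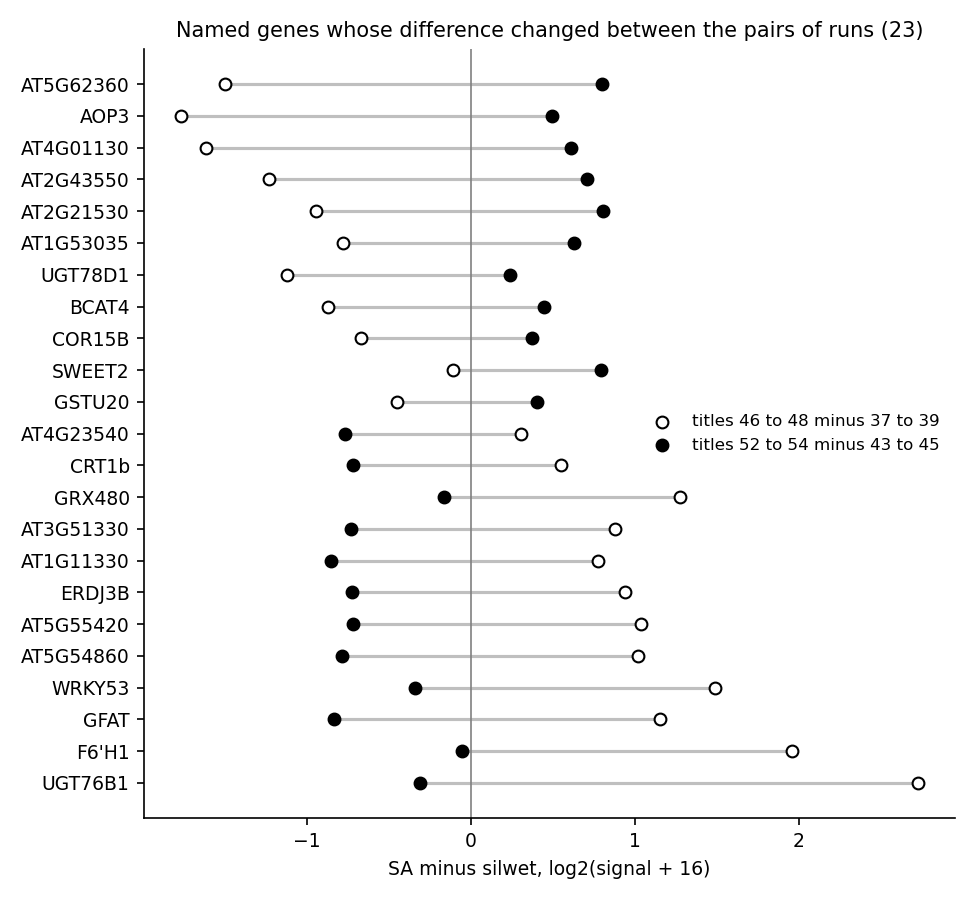
SA minus silwet difference (log2) in the first pair of runs (open circles) and in the present pair (filled circles) for the 23 named genes whose difference changed between the pairs at an adjusted p under 0.05. The widest gap is that of UGT76B1, from 2.73 to -0.31, and all 23 genes lie on opposite sides of 0 in the 2 pairs of runs. Many of them were chosen by their difference in the present pair, which favours such gaps.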

How the data were processed

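The authors deposited 1 linear intensity signal for each probe set on each array. Per the submitters' processing notes these are MAS5 signals, with no version or setting named. Each array's mean signal without the lowest and highest 2% of probe sets was 100.008 to 100.01, so changes in total RNA cannot show. Median signals of the 6 arrays were 29.9 to 35.4, and the number of arrays limits the precision. No 2 arrays held identical values. Signals were not scaled again, 64 controls and the probe sets with a mean under the 25th percentile of the 6 arrays were left out, and log2(signal + 16) was fitted in limma 3.58.1 (R 4.3.3) with treatment and replicate number, a variance trend and Benjamini-Hochberg adjustment at 0.05. The method was tested on simulated data.

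The replicate numbers pair the arrays: correlations of deviations from the group means were 0.609, 0.465 and 0.449 for equal numbers, each higher than with any other number. The comparison itself is defined with this pairing.

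Gene names came from the platform annotation and the TAIR10.1 gene table, which also gave gene length. Of the probe sets tested, 9517 had 1 gene, 343 several and 7199 are unnamed here. The lists held 731 entries matched to a locus, and 94 different loci of them were tested. The arrays, the 25 gene lists and the genes always named were chosen with earlier results of these data known. Named genes had 1 gene and the same sign in all 3 pairs: the 12 with the smallest p in each direction, since none passed. To these were added the 2 members of each list with the smallest p, and UGT76B1, GRX480, WRKY53, PDF1.2, PDF1.2b and F6'H1. Where a locus had several probe sets, lists used the one with the highest mean. Symbols in 2 lists that pointed to another gene were replaced after their values were seen. Alternatives were offsets of 64 and 1, no replicate block, a filter at the median or none, quantile normalization, no variance trend, array weights, all 18 arrays, each replicate number left out and, chosen after seeing the data, the gene length trend removed (per array, loess with a span of 0.5). Plots used matplotlib 3.10.9.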

Additional observations from a re-analysis of the deposited data

Results flagged for a closer look

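The SA minus silwet difference of 704 probe sets changed between the first pair of runs and the present one, by a test of the change itself in limma. The pairs of runs follow the order of the titles, since no label names the partner of an SA run. Without replicate number 2 the test called 1 probe set, and without replicate number 3 it called 22.

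Among the named genes with a change above 0, the values were 2.3 for AT5G62360, 2.26 for AOP3, 2.23 for AT4G01130, 1.94 for AT2G43550, 1.75 for AT2G21530, 1.4 for AT1G53035, 1.36 for UGT78D1, 1.32 for BCAT4, 1.05 for COR15B, 0.90 for SWEET2 and 0.85 for GSTU20.

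Among those with a change below 0, the values were -3.04 for UGT76B1, -2.01 for F6'H1, -1.99 for GFAT, -1.83 for WRKY53, -1.81 for AT5G54860, -1.76 for AT5G55420, -1.67 for ERDJ3B, -1.63 for AT1G11330, -1.61 for AT3G51330, -1.44 for GRX480, -1.27 for CRT1b and -1.07 for AT4G23540. Of the genes listed for SA synthesis and signalling 2 of 5 tested differed, and of those listed for the endoplasmic reticulum 2 of 4. Over all probe sets tested 704 of 17059 differed. The lists were chosen with earlier results of these data known, and their shares were not tested against that background.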

How the results depend on the processing

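No probe set passed in either direction under any other setting that kept all 6 arrays, or with the gene length trend removed. Leaving out 1 replicate number gave 0 to 163 probe sets passing as higher and 0 to 374 as lower, the maximum in both directions without replicate number 1, where the fit had 1 residual degree of freedom and took the variance prior as exact. At an unadjusted p under 0.05 the ranges were 342 to 953 higher and 849 to 1630 lower. With no replicate block, 192 were higher and 640 lower at that limit, and with the gene length trend removed 462 and 385. The paired value is the one the report gives, and without the replicate block the count of probe sets that differed from the first pair of runs was 217 instead of 704. That count ran from 1 to 762 when 1 replicate number was left out, lowest without number 2 and 22 without number 3. With the gene length trend removed it was 490 of 9495, of which 368 were among the 704. The cause of these shifts was not tested.

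No named gene that changed sign passed in the setting that turned it. Quantile normalization gave 0.0282 for F6'H1 and -0.0625 for HPR, and array weights gave 0.11 for PDF1.2b. With 1 replicate number left out, the difference ran from -0.75 to 0.0171 for WRKY53, from -0.0318 to 0.47 for TAPX, from -0.41 to 0.17 for SAPX, from -0.0283 to 0.30 for AT1G55290, from -0.44 to 0.26 for F6'H1, from -0.26 to 0.0451 for LHCB4.1, from -0.0645 to 0.16 for HPR, from -0.27 to 0.0238 for PORB, from -0.75 to 0.0188 for UGT76B1, from -0.35 to 0.0139 for GRX480, from -0.22 to 0.0891 for PDF1.2 and from -0.18 to 0.27 for PDF1.2b. Without replicate number 1, 26 named genes passed, most of them chosen for a small p on these same arrays.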

Other observations

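Several transcripts differed more between replicate numbers than between treatments. PDF1.2 stood at 10.14 and 10.29 on the silwet and SA arrays with replicate number 2, and between 6.43 and 7.07 on the other four. AT3G28220 stood at 9.71 and 10.51 on the arrays with replicate number 1, and between 6.09 and 7.75 on the others. PYK10 stood at 8.06 and 8.08 with replicate number 1, at 6.97 and 6.83 with number 2 and at 6.52 and 6.12 with number 3. The dehydrin LTI30 was at 10.65 and 10.88, 9.45 and 9.60, and 8.52 and 9.07 in the same order, and the anthocyanin enzyme DFR at 8.52 and 8.83, 6.88 and 7.12, and 6.46 and 6.5.

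The widest differences of some genes lay in the pair with replicate number 1. GI, a clock protein, was at 8.45 and 7.19 on arrays 43 and 52, the stromal ascorbate peroxidase SAPX at 7.17 and 6.25, and the expansin EXPA15 at 7.14 and 6.14. In the other two pairs GI differed by -0.37 and 0.32, SAPX by 0.09 and 0.25 and EXPA15 by 0.19 and 0.16. Other cell wall genes went the other way in the pair with replicate number 1, with EXGT-A3 at 0.91 and XTH16 at 0.50. These genes were picked out after their values were seen. GI has 6040 bases, and the median difference of genes over 6000 bases in the pair with replicate number 1 was -0.62. With the gene length trend removed, the mean difference of GI went from -0.44 to -0.14.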
